A study of Mus musculus with 16 samples.

Results

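Transcription factors that set up and hold microglial identity, Sall1, Sall3, Spi1 (the gene of PU.1), Maf, Mef2a, Mef2c, Runx1, Cebpa and Cebpb, were followed through microglia of mice labelled wild type or knockout for the DNA repair gene Ercc1. They were taken by symbol from the 53700 lines of each library's count file, and all 9 members were found. Of these, 8 passed the filter on low counts and stand among the 17090 genes tested, while Cebpb did not pass it in any group.

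Microglia are the macrophages that live in the brain. The cells came from whole brains of mice on a C57Bl6J/FVB cross background and were sorted as DAPI-negative, CD11b-high, CD45-intermediate and Ly6c-negative. The 4 groups were wild type (WT) at 6 weeks, labelled Ercc1 knockout (KO) at 6 weeks, WT at 12 weeks and KO at 12 weeks, with 4 libraries each. By the sex labels, WT and KO were alike at each age, with 2 of 4 libraries from females at 6 weeks and 1 of 4 at 12 weeks. The labels name no Cre line or second allele and do not say how much of Ercc1 is lost. ERCC1 works with XPF as a nuclease in nucleotide excision and crosslink repair. The study asked how microglial gene expression differs between KO and control at these ages.

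Total counts ran from 7882182 to 22142972 per library, and 17249 to 21472 genes had a count. Ercc1 itself stood at 13.5 to 30.6 CPM (counts scaled to the size of the library) in 6-week WT and at 2.82 to 4.54 CPM in 6-week KO. Its 12-week levels were 7.46 to 49.2 CPM in WT and 0.425 to 6.77 CPM in KO, so the KO libraries lay below the WT libraries at both ages. At the single ages neither difference passed the test (adjusted p = 0.209 and 0.105, edgeR quasi-likelihood). With only the 2 groups compared the adjusted p was 0.0181 at 6 weeks and 0.403 at 12 weeks. Averaged over both ages, in a comparison added after the data were seen, Ercc1 fell by 2.27 on the log2 scale (adjusted p = 0.0119, edgeR). That call held in all 16 fits without 1 library and was lost with a replicate block in place of sex (adjusted p = 0.0845). All 10 microglial markers had counts in every library. The 12-week WT library numbered 5_6 is labelled male but carried both Xist, at 340 CPM, and 4 Y-linked genes, at 109 CPM in sum, and its label holds 2 numbers. The 12-week WT libraries 3 and 8 stood apart from the rest in a principal component analysis. To a lesser degree 12-week KO library 4 lay away from its group, at -72.5 on the third component against -9.97 to 5.55. It was left out only in the fits without 1 library. Calls on the factors and on the related genes named below that were lost without libraries 3 and 8 are given with and without them. The labels do not say that each library is a separate mouse, so p-values measure the spread between these libraries, which may in part be technical.

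PU.1, a factor of the ETS family, opens myeloid enhancers and is needed for all macrophages, and RUNX1 and C/EBP-alpha act with it while blood cells commit to the myeloid line. On that shared base, SALL1, a zinc finger factor found among macrophages mainly in microglia, and the MEF2 and MAF factors help to give enhancers their microglial pattern. SALL1 and MEF2C are known to restrain inflammatory activation, and C/EBP-beta is known for driving acute-phase and inflammatory genes. In bulk RNA, fewer cells that express a gene and less RNA of it per cell cannot be told apart.

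Levels of different genes can be set side by side only per length. Exonic lengths from GENCODE vM21 were used, since the release behind the counts is not given in the sources used here. Each length joins the exons of all annotated transcripts of a gene, such as 2695 bases for Spi1 and 15715 for Mef2c. It can be longer than any single transcript, which lowers the level per kilobase. The order of genes may depend on this choice, and other lengths were not tried. In 6-week WT microglia Spi1 stood highest, at 113 ± 26.2 CPM per kilobase (SD, n = 4). Sall1 followed at 91.8 ± 10.3 CPM per kilobase, and the ranges of these 2 genes overlapped (85.2 to 139 and 78.2 to 103). Mef2c at 62.3 ± 2.86 and Maf at 61.5 ± 2.17 CPM per kilobase could not be told apart either. Mef2a stood alone at 36.6 ± 4.29 CPM per kilobase. Sall3 (15.99 ± 3.86), Cebpa (13.01 ± 1.33) and Runx1 (11.51 ± 1.14 CPM per kilobase) overlapped in range. Cebpb was the lowest at 0.200 ± 0.141 CPM per kilobase. The order was not fixed: in 12-week WT the mean of Sall1 (98.0 ± 16.04) stood above that of Spi1 (80.9 ± 20.1 CPM per kilobase), again with overlapping ranges.

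MAF, a bZIP factor that binds long palindromes and is shared by many tissue macrophages, showed the clearest difference. Maf stood at 518, 500, 485 and 524 CPM in the 6-week WT libraries and at 352, 363, 365 and 377 CPM in 6-week KO. The 12-week values were 667, 436, 458 and 527 CPM in WT libraries 3, 4, 5_6 and 8, and at 391, 291, 343 and 310 CPM in KO. Every KO library lay below every WT library of its age. Groups that do not overlap in this direction were found for 2.96% of the 17090 genes at 6 weeks and for 3.08% at 12 weeks, and Maf was the one member among them at each age.

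At 12 weeks the mean of Maf in KO was 63.9% of that in WT, a log2 fold change of -0.64 ± 0.12 (SE; 95% interval -0.89 to -0.39; adjusted p = 0.00642, edgeR quasi-likelihood test). Maf was the only one of the 8 members tested that passed the threshold of 0.05 there, while 2.98% of all genes passed it in either direction and 0.954% passed it as lower in KO. At 6 weeks Maf in KO was 71.9% of WT, a log2 fold change of -0.48 ± 0.12 with an adjusted p of 0.093 by the same test, which misses the threshold. The difference between these 2 effects was -0.16 ± 0.17 (95% interval -0.52 to 0.19; adjusted p = 1), so a change of the effect with age was not detected.

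The side of the threshold on which Maf fell depended on which libraries were fitted, on the covariate and on the tool. Of 25 alternatives to the reported fit, 22 passed at 12 weeks and 5 at 6 weeks. A replicate block in place of sex lost the 12-week call. DESeq2 and limma voom with library weights both made the 6-week call. With only the 2 groups compared, the 12-week change was -0.62 with an adjusted p of 0.0881, and the 6-week adjusted p was 0.0126. Without WT libraries 3 and 8 the 12-week change was -0.40 and its adjusted p 0.108. Without library 3 alone the 12-week change was -0.47 (adjusted p = 0.0285), and the 6-week adjusted p was 0.0275, past the threshold. Without library 8 alone the 12-week change was -0.59 (adjusted p = 0.0232). Without library 5_6 it was -0.67 (adjusted p = 0.00973). The change at 12 weeks stayed past the threshold in all 16 fits that each left out 1 library.

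**Figure D1:**
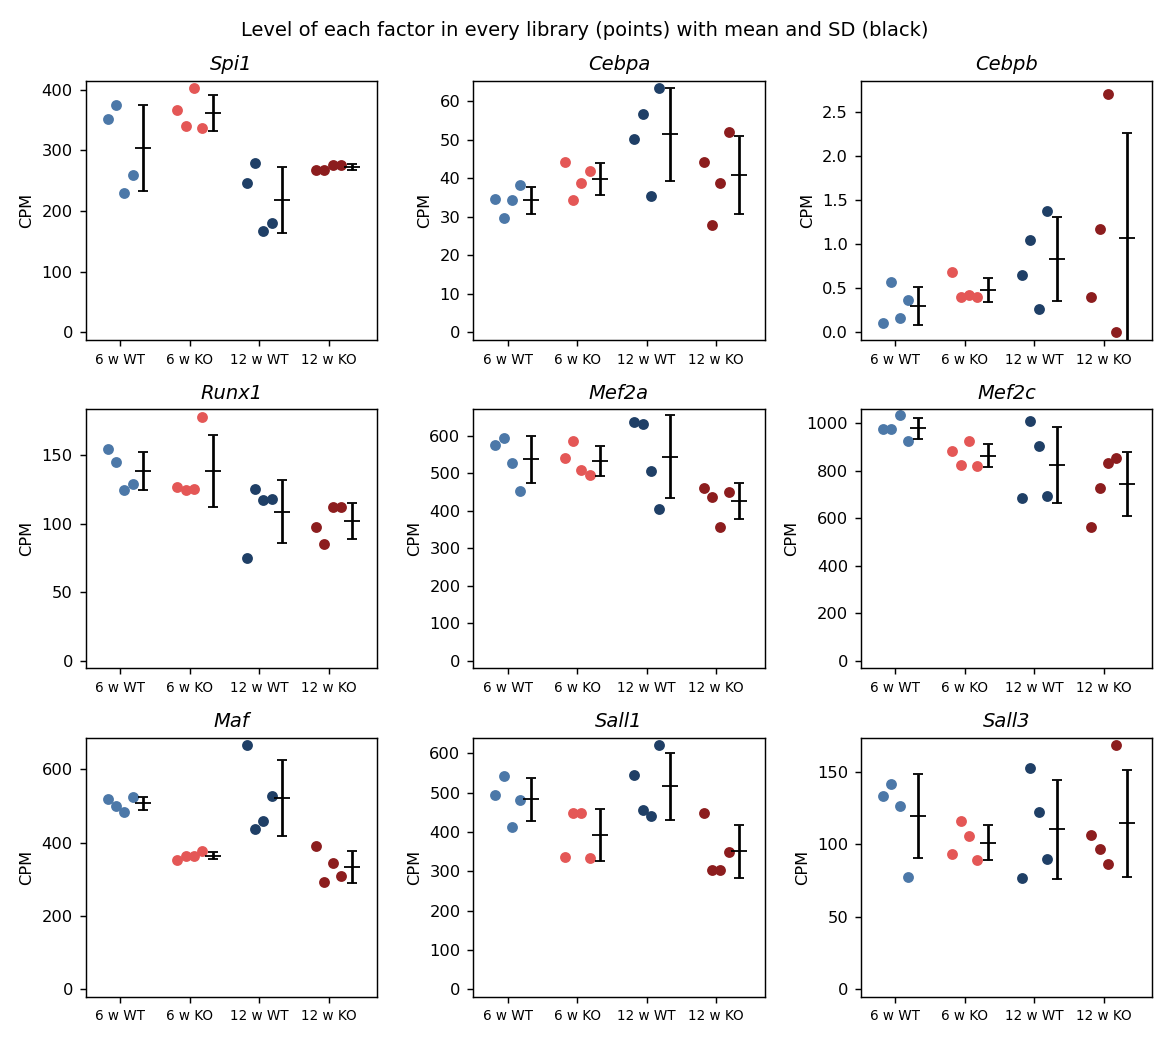
Level of each of the 9 factors in CPM (y axis, linear, each panel with its own scale) in every library of the 4 groups (x axis; w, weeks). Points are libraries, and black marks show the mean and SD of 4 libraries; for Maf every KO point lies below every WT point of the same age, at 352 to 377 against 485 to 524 CPM at 6 weeks.

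SALL1 is the factor whose loss is known to push adult microglia away from their resting state. Sall1 stood at 495, 543, 412 and 482 CPM in 6-week WT and at 337, 449, 448 and 334 CPM in 6-week KO. At 12 weeks the values were 545, 456, 441 and 622 CPM in WT libraries 3, 4, 5_6 and 8 and at 448, 303, 304 and 349 CPM in KO. The groups overlapped at both ages, at 12 weeks only through KO library 1, which lay just above WT library 5_6.

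At 6 weeks Sall1 differed by -0.31 ± 0.15 on the log2 scale (adjusted p = 0.75), and its 12-week log2 fold change was -0.55 ± 0.16 (95% interval -0.88 to -0.22; adjusted p = 0.0712, edgeR), and neither passed the threshold. Without 12-week KO library 1 the 12-week change was -0.68 with an adjusted p of 0.025. Without 12-week WT libraries 3 and 8 it was -0.35 with an adjusted p of 0.437.

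Sall3, a relative of Sall1 that is also found in microglia, showed no such order of the groups. It stood at 133, 142, 126 and 77.3 CPM in 6-week WT and at 92.9, 116, 106 and 89.2 CPM in 6-week KO. The 12-week libraries held 76.4, 152, 122 and 89.6 CPM in WT and at 106, 96.7, 86.3 and 168 CPM in KO. Its values overlapped between genotypes at both ages, and its log2 fold changes were -0.25 ± 0.25 and 0.05 ± 0.25 (adjusted p = 1 and 0.972, edgeR). The 95% intervals were -0.78 to 0.29 and -0.48 to 0.59. The first holds the 6-week change of Sall1 and the second does not reach its 12-week change of -0.55, but the difference between the genes was not tested.

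A genotype comparison averaged over both ages, added after the data were seen, used all 16 libraries for 1 contrast. By it, Maf fell by 0.56 ± 0.08 on the log2 scale (adjusted p = 0.000694, edgeR) and Sall1 by 0.43 ± 0.11 (adjusted p = 0.0335). These 2 of 8 members passed the threshold, beside 4.65% of all genes. Maf passed it in all 16 fits without 1 library, with an adjusted p of at most 0.003. Sall1 passed it in 6 of the 16, and its adjusted p reached up to 0.0912 in the others, which left out WT libraries 1, 2 or 4 or KO libraries 1 or 4 of 6 weeks, or WT libraries 3 or 8 or KO libraries 2, 3 or 4 of 12 weeks. Without both WT libraries 3 and 8 the averaged change of Sall1 was -0.33 (adjusted p = 0.172) and that of Maf -0.44 (adjusted p = 0.00296).

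**Figure D2:**
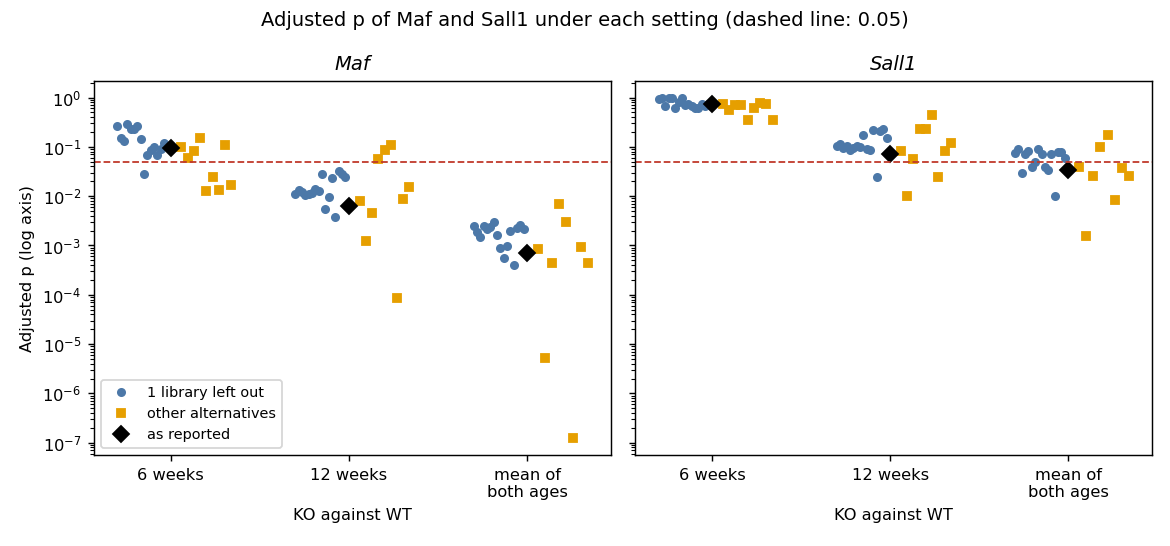
Adjusted p (y axis, log scale) of Maf and Sall1 for KO against WT at 6 weeks, at 12 weeks and averaged over both ages (x axis), with the reported fit as a diamond, fits without 1 library as circles and the other alternatives as squares. The dashed line is the threshold of 0.05; all values of Maf for the averaged comparison lie below it, while those of Sall1 lie on both sides.

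Spi1, the gene of PU.1, was not lower in KO at either age. Spi1 stood at 352, 375, 230 and 259 CPM in 6-week WT and at 366, 340, 402 and 337 CPM in 6-week KO. In the older mice it was at 247, 280, 167 and 179 CPM in WT and at 268, 268, 275 and 277 CPM in KO. WT libraries fell into a wide range at each age, and the KO libraries of 12 weeks lay within 10 CPM of each other. The log2 fold changes were 0.25 ± 0.17 at 6 weeks and 0.32 ± 0.17 at 12 weeks (adjusted p = 0.923 and 0.431, edgeR), with 95% intervals of -0.12 to 0.61 and -0.04 to 0.69.

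The MEF2 factors, MADS-box proteins with many targets in neurons, muscle and microglia, were the most abundant members in reads. Mef2c stood at 977, 977, 1035 and 925 CPM in 6-week WT and at 884, 826, 925 and 822 CPM in 6-week KO. The 12-week levels were 684, 1012, 906 and 696 CPM in WT and at 563, 728, 835 and 854 CPM in KO. The ranges overlapped at both ages, barely so at 6 weeks, and the log2 fold changes were -0.18 ± 0.14 and -0.15 ± 0.14 (adjusted p = 0.964 and 0.737, edgeR).

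Mef2a stood at 574, 594, 528 and 452 CPM in 6-week WT and at 540, 585, 509 and 494 CPM in 6-week KO, all within the WT range. In 12-week mice the levels were 636, 630, 507 and 404 CPM in WT and at 462, 436, 357 and 450 CPM in KO. Of the 12-week WT libraries, 3 lay above every KO library and library 8 lay among them. The log2 fold change was -0.01 ± 0.14 at 6 weeks (95% interval -0.30 to 0.28) and -0.35 ± 0.14 at 12 weeks (-0.64 to -0.05; adjusted p = 0.239, edgeR).

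MEF2 factors bind A- and T-rich sites, and the promoter of Mef2a holds such a site. It is shown because the letters TAAAAATAG were found in 0.493% of the 32851 RefSeq promoter windows, each from 250 bases before to 50 bases after a start. Windows were available for 6 of the 9 members and were searched on both strands. The PU.1 letters GAGGAAG, present in 13.6% of all windows, were found in the windows of Mef2a, where a second copy lies just upstream in lower case, and of Mef2c. The capitals below mark these letters in RefSeq sequence of GRCm38.p6, 5′ to 3′ on the gene's strand.
Mef2a, MEF2 letters, chr7:67372841-67372870, minus strand, at position -1 from the start: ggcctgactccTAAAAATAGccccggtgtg
Mef2a, PU.1 letters, chr7:67372935-67372981, minus strand, at position -103 from the start: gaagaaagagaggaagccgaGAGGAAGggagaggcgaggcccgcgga
Mef2c, PU.1 letters, chr13:83523450-83523496, plus strand, at position -186 from one of its starts: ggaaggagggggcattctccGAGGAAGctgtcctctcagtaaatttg

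RUNX1, a runt-domain factor needed for definitive blood formation, had closely matched means in WT and KO. Runx1 stood at 154, 145, 125 and 129 CPM in 6-week WT and at 127, 124, 125 and 178 CPM in 6-week KO. By library, the 12-week levels were 75.1, 126, 117 and 118 CPM in WT and at 97.3, 85.1, 112 and 112 CPM in KO. One library in each of 2 groups lay far from its fellows, KO library 4 at 6 weeks and WT library 3 at 12 weeks. The genotype log2 fold changes were -0.003 ± 0.16 and -0.08 ± 0.16 (adjusted p = 1 and 0.913, edgeR).

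The promoter of Runx1 holds the RUNX letters AACCACA, which were found in 5.27% of all windows. A window of Runx1 had 2 copies in a row, the second in lower case here, just after the start.
Runx1, RUNX letters, chr16:92826030-92826059, minus strand, at position 27 from the start: gacctcataaacAACCACAgaaccacaagt
No window of Sall1, Cebpa or Cebpb held any of the 5 motifs searched, which also included the C/EBP palindrome TTGCGCAA (0.183% of windows) and the MAF letters TGCTGAC (4.67%).

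C/EBP-alpha primes the myeloid line and is present at low level in resting microglia. Cebpa stood at 34.7, 29.8, 34.3 and 38.4 CPM in 6-week WT and at 44.1, 34.4, 38.7 and 41.9 CPM in 6-week KO. The older groups were at 50.3, 56.7, 35.3 and 63.4 CPM in WT and at 44.3, 28.0, 38.7 and 52.0 CPM in KO. The genotypes overlapped at both ages, with log2 fold changes of 0.21 ± 0.21 and -0.34 ± 0.21 (adjusted p = 1 and 0.544, edgeR).

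C/EBP-beta, the inflammatory member of its family, was barely counted. Cebpb had 1, 5, 2 and 3 counts in the 6-week WT libraries and 7, 7, 4 and 7 in 6-week KO. It had 6, 11, 6 and 13 counts in 12-week WT and 4, 11, 22 and 0 in 12-week KO. The sums, 11, 25, 36 and 37 counts, correspond to means of 0.300, 0.478, 0.832 and 1.07 CPM, and a library's floor of 3 counts lies between 0.132 and 0.376 CPM. No difference can be read from these counts. Beside that, 20.7% of its exonic bases overlap Tmem189 on the opposite strand, and whether counting used strand is not given in the sources used here. Its longest transcript has a GC content of 67.2%, above 99.8% of the 17063 tested genes with a value, and that of Cebpa has 62.6%, above 99.0%. Both are genes of 1 exon. The part of GC content in these levels was not tested.

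At 6 weeks none of the 8 members tested passed the threshold by edgeR, beside 0.872% of all genes, while 1 had an unadjusted p under 0.05, as did 7.31% of all genes. DESeq2 and limma voom with library weights each called 1, Maf in both, beside 581 and 266 of all genes. The log2 fold changes of the 8 ran from -0.48 to 0.25 with a median of -0.10, and that of all genes tested was -0.02. At 12 weeks they ran from -0.64 to 0.32 with a median of -0.24, against -0.03 for all genes. Of the 8, 6 were negative at each age.

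**Figure D3:**
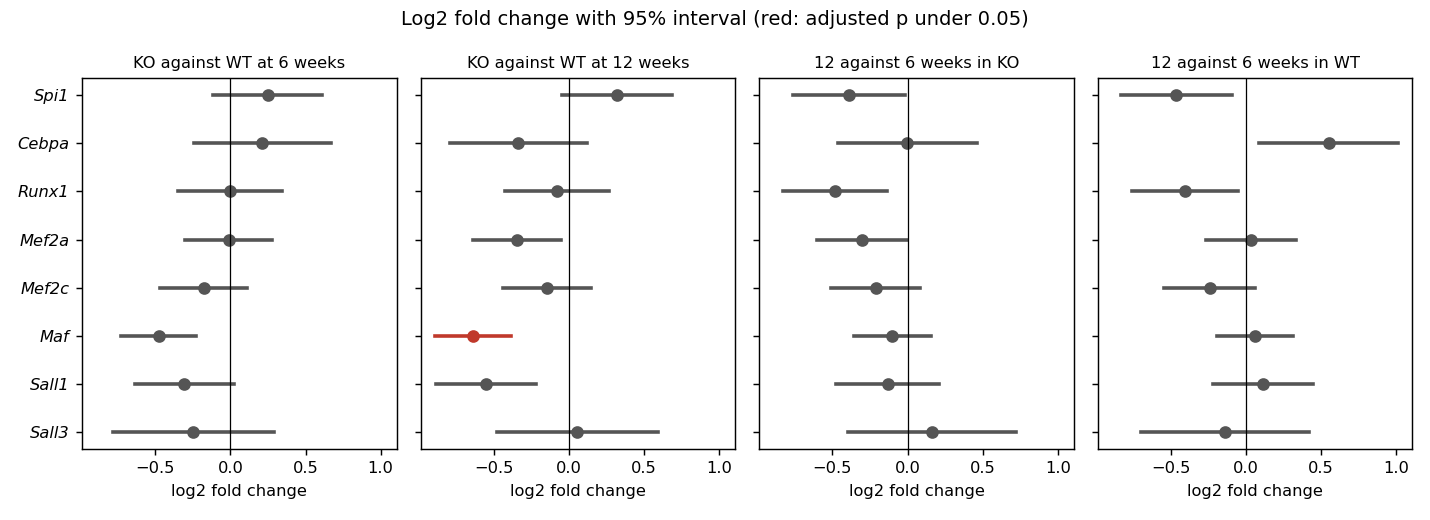
Log2 fold change (x axis) with its 95% interval for the 8 factors tested (y axis), 1 panel for each comparison of genotype or age. Red marks an adjusted p under 0.05, which Maf at 12 weeks reached (-0.64, interval -0.89 to -0.39); intervals that leave out 0 in grey did not pass after adjustment over all genes.

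Age was compared within each genotype. In KO none of the 8 passed the threshold (0.0234% of all genes did), 3 had an unadjusted p under 0.05 beside 8.8% of all genes, and DESeq2 and limma voom called 0. Runx1 was at 102 ± 13.1 CPM at 12 weeks against 139 ± 26.4 CPM at 6 weeks, a log2 fold change of -0.48 ± 0.16 (adjusted p = 0.364, edgeR). Spi1 was at 272 ± 4.84 against 361 ± 30.1 CPM (-0.39 ± 0.17; adjusted p = 0.538). Mef2a was at 426 ± 47.4 against 532 ± 40.0 CPM (-0.30 ± 0.14; adjusted p = 0.563). For these 3 members every 12-week KO library lay below every 6-week KO library, which was so for 3.51% of all genes.

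In WT again none of the 8 passed (0.0117% of all genes did), 3 had an unadjusted p under 0.05 beside 7.44% of all genes, and DESeq2 and limma voom called 0. Spi1 was at 218 ± 54.0 CPM at 12 weeks against 304 ± 70.6 CPM at 6 weeks, a log2 fold change of -0.46 ± 0.17 (adjusted p = 0.535, edgeR). Runx1 was at 109 ± 22.9 against 138 ± 13.7 CPM (-0.41 ± 0.17; adjusted p = 0.587). Cebpa was at 51.4 ± 12.0 against 34.3 ± 3.504 CPM (0.55 ± 0.22; adjusted p = 0.566). The ages overlapped for all 3. Maf and Sall1 differed little between ages in either genotype, with log2 fold changes between -0.13 and 0.11. The genotype effect differed between ages for none of the 8 by edgeR (0.00585% of all genes passed), none had an unadjusted p under 0.05 beside 4.74% of all genes, and DESeq2 and limma voom called 0.

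Summed microglial markers moved with genotype beside the fall of Maf. The 10 markers summed to 72870 to 79808 CPM in 6-week WT, 61231 to 71781 in 6-week KO, 66439 to 74154 in 12-week WT and 52916 to 55499 in 12-week KO. Markers of border-associated macrophages, which live at the brain's edges and also use Maf and Spi1, summed to 261 to 328 CPM in WT and 329 to 518 CPM in KO at 6 weeks, and to 230 to 278 and 292 to 396 CPM at 12 weeks. Of these 12 genes, 8 at 6 weeks and 7 at 12 weeks had all KO libraries above all WT libraries. The share of all genes that lay so is not given here, so these counts are a description only. Stab1, which made up most of the sum in the WT libraries, lay the other way at 12 weeks, at 179 to 259 CPM in WT and 116 to 178 CPM in KO. The mannose receptor Mrc1 was at 0.324 to 19.6 CPM in 12-week WT and 40.9 to 78.3 CPM in KO, and the chemokine Ccl8 at 0 to 0.57 and 12.3 to 24.0 CPM. Monocyte markers (9 genes, up to 5 with a count in a library) summed to 6.96 to 20.1 CPM in WT and 9.37 to 36.7 CPM in KO at 6 weeks, and to 1.08 to 11.4 and 15.1 to 31.6 CPM at 12 weeks, where the genotypes did not overlap. Of 10 neutrophil markers, Ly6g, Mpo, Elane, Cxcr2 and Mmp8 were at 0 throughout, and the sum reached 62.3 CPM in 6-week WT library 2 and at most 8.72 CPM in the other libraries. T and NK cell markers summed to at most 3.74 CPM over 8 genes. B cell markers summed to 974 to 1230 CPM over 6 genes, of which 2 or 3 had counts. Neuron markers summed to 62.4 to 218 CPM (11 genes), astrocyte markers to 257 to 431 (7 genes), and oligodendrocyte markers to 203 to 348 CPM (8 genes). Vessel markers (8 genes, mostly Pecam1) summed to 51.8 to 78.3 CPM in WT and 11.4 to 38.9 CPM in KO at 6 weeks, without overlap, and to 17.7 to 54.3 and 24.3 to 38.3 CPM at 12 weeks. Their part in the results on the factors was not tested.

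To find genes with a like pattern, for each gene, the level in the 16 libraries was centred on its mean on the log2 scale and compared by the root mean square difference among 9803 named genes of at least 5 CPM. The nearest genes to Maf were Plekho1 (0.15), Rb1 (0.15) and Lpar6 (0.16), where Maf itself varied with an SD of 0.32. Those to Sall1 were Kctd12 (0.13), Rgs2 (0.13) and Maf (0.19), with an SD of 0.30 for Sall1. Seen from Maf, Sall1 was the gene of rank 10. Spi1 was far from Maf, at 0.54 and rank 4437. Lpar6 lies inside Rb1 on the opposite strand with 408 shared exonic bases. These 2 may not be separate measurements, since how strand and shared reads were handled is not given in the sources used here. All share the same 16 libraries and the group differences described above.

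These genes were chosen for a pattern in which KO lies below WT, so their changes are a description with no test. The log2 fold changes at 6 and 12 weeks were -0.41 and -0.61 for Rb1, the retinoblastoma cell cycle inhibitor. They were -0.44 and -0.68 for Lpar6, a receptor for lysophosphatidic acid, and -0.29 and -0.41 for Plekho1. Kctd12, a subunit of GABA-B receptors, was at -0.27 and -0.62, and Rgs2, which quenches G protein signals, at -0.14 and -0.50. Without WT libraries 3 and 8 the 12-week changes of Kctd12 and Rgs2 were -0.41 and -0.32.

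**Figure D4:**
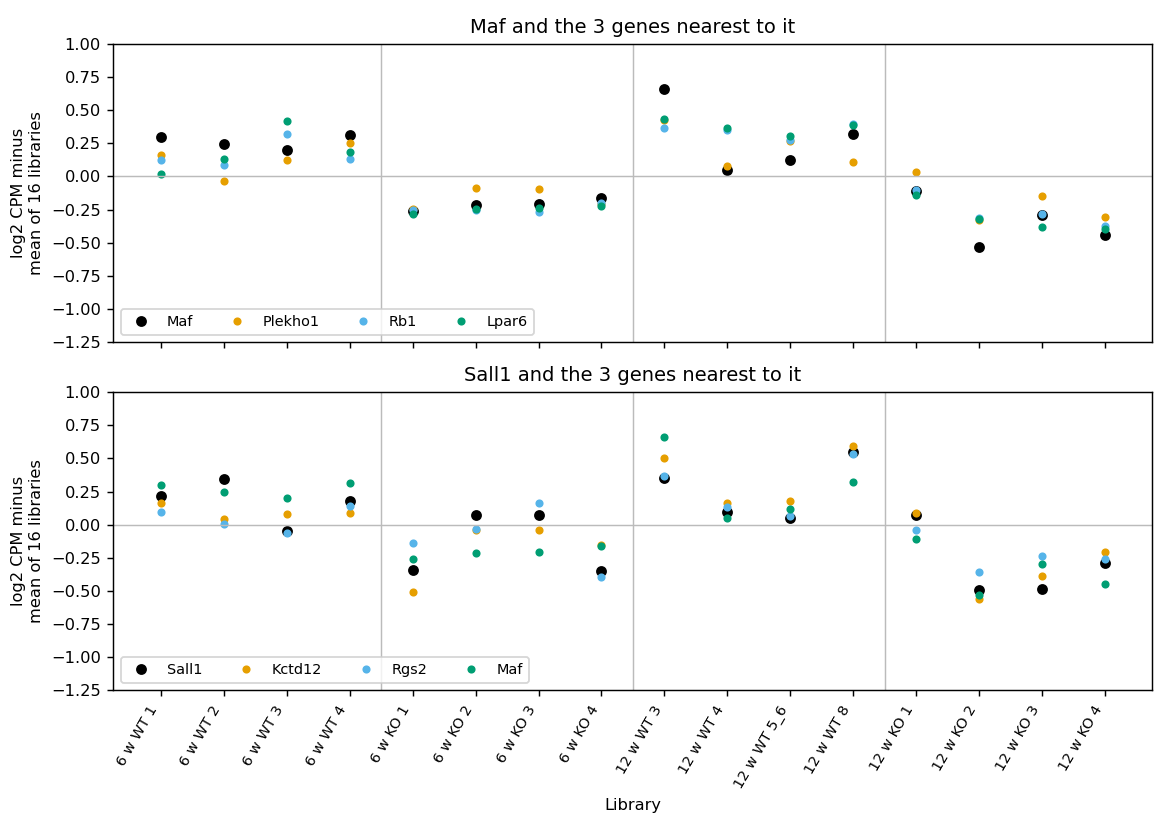
Level of Maf (top) and Sall1 (bottom) in black with the 3 nearest genes in colour, as log2 CPM minus the gene's mean over 16 libraries (y axis), by library (x axis, grey lines part the groups). The KO libraries of Maf lie below 0 and its WT libraries above 0 at both ages.

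Genes around the 9 factors were taken from 6 lists of textbook relations. These lists were chosen with earlier results of these data known, so their counts and medians are a description only. Among family relatives 10 of 18 were tested and none passed the threshold at either age by edgeR, DESeq2 or limma voom, with 0 and 1 at an unadjusted p under 0.05 at 6 and 12 weeks, where 7.31% and 14.4% of all genes lay under it. The list's median log2 fold change was -0.10 at 6 weeks and -0.25 at 12 weeks.

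Of 30 other factors of microglia and macrophages 27 were tested, and none passed at either age by edgeR, beside 0.872% and 2.98% of all genes. At an unadjusted p under 0.05 lay 3 and 8, beside 7.31% and 14.4% of all genes. DESeq2 called 1 at 6 weeks and 4 at 12 weeks, where it called 581 and 1556 of all genes. The counts by limma voom were 1 and 0, with 266 and 459 of all genes. The medians were 0.005 and 0.09. Averaged over both ages, Id2, an inhibitor of bHLH factors, rose by 0.81 ± 0.16 (adjusted p = 0.00823) and Egr2, an immediate early zinc finger factor, by 3.15 ± 0.85 (adjusted p = 0.0465, edgeR). These were 2 of the 27, beside 4.65% of all genes. The call on Egr2 was lost without WT libraries 3 and 8 (2.49; adjusted p = 0.0704) and held in 4 of 16 fits without 1 library, that on Id2 in all 16. Irf8, the partner of PU.1 and chosen for mention after its values were seen, was at 621 ± 31.5 and 620 ± 70.8 CPM in WT and KO at 6 weeks and at 545 ± 108 and 581 ± 51.0 CPM at 12 weeks. Factors of other tissue macrophages, 4 tested of 8, gave no call at either age by edgeR, DESeq2 or limma voom and none at an unadjusted p under 0.05, and their medians were 1.25 and 0.32.

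Of 21 partners and regulators 16 were tested, and none passed at 6 weeks by the 3 tools. At an unadjusted p under 0.05 lay 1 at 6 weeks and 2 at 12 weeks, beside 7.31% and 14.4% of all genes. At 12 weeks 1 gene passed the threshold by edgeR, beside 2.98% of all genes. It was Tle3, a Groucho corepressor that RUNX factors recruit, at 17.9 ± 1.58 CPM in KO and 39.6 ± 19.0 CPM in WT, a fall of 1.14 ± 0.27 on the log2 scale (adjusted p = 0.0347). This call held in 3 of 16 fits without 1 library, and without WT libraries 3 and 8 the change was -0.55 (adjusted p = 0.349). With only the 2 groups compared the adjusted p was 0.249. The medians of the list were -0.34 and -0.16.

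All 20 myeloid genes known to be regulated by PU.1 were tested. Because the list was chosen with earlier results known, its counts are a description with no test. The shares of all genes set beside them are not matched to these genes in level or spread. At an unadjusted p under 0.05 lay 9 at 6 weeks and 10 at 12 weeks, beside 7.31% and 14.4% of all genes. The threshold was passed by 2 and 6, beside 0.872% and 2.98% of all genes in either direction. At 6 weeks 2 were higher in KO and none lower, Tyrobp, the adaptor of TREM2, by 0.46 ± 0.10 (adjusted p = 0.0411) and Ctss, a lysosomal protease, by 0.46 ± 0.09 (adjusted p = 0.0307, edgeR). These calls held in 5 and 7 of the 16 fits without 1 library. At 12 weeks 5 were higher and 1 lower. Tyrobp rose by 0.69 ± 0.10 (575 ± 82.6 to 931 ± 81.5 CPM; adjusted p = 0.00078), Ctss by 0.63 ± 0.09 (adjusted p = 0.00109) and Csf2ra, a receptor chain for GM-CSF, by 1.07 ± 0.19 (adjusted p = 0.00523). Cx3cr1, the receptor for the neuronal chemokine fractalkine, fell by 0.48 ± 0.08 (8778 ± 891 to 6309 ± 541 CPM; adjusted p = 0.00332). The other 2, Cd68 and the oxidase subunit Cybb, fall outside the rule for naming and were named after their values were seen, at 0.45 ± 0.09 (adjusted p = 0.0136) and 4.83 ± 1.00 (adjusted p = 0.0137). All 6 calls of 12 weeks held in each of the 16 fits without 1 library, and 5 of them, all but that on Cd68 (0.41; adjusted p = 0.138), without WT libraries 3 and 8. With only the 2 groups compared 3 of the 6 were lost, Csf2ra (adjusted p = 0.0872), Cd68 (0.0781) and Cx3cr1 (0.056). The medians of the 20 genes were 0.10 and 0.16, and Spi1 itself passed at neither age.

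Of 13 genes known to be regulated by C/EBP-beta 7 were tested. At an unadjusted p under 0.05 lay 2 at 6 weeks and 4 at 12 weeks, beside 7.31% and 14.4% of all genes. The threshold was passed by 1 and 2, beside 0.872% and 2.98% of all genes in either direction. Ccl2, a chemokine for monocytes, rose at both ages, from 5.16 ± 3.03 to 30.7 ± 6.99 CPM at 6 weeks and from 7.88 ± 2.64 to 77.2 ± 51.0 CPM at 12 weeks (log2 fold changes of 2.57 ± 0.49 and 3.27 ± 0.49; adjusted p = 0.0183 and 0.00119, edgeR). The 6-week call was lost without WT library 2 or KO library 1, 2 or 3 of that age, with an adjusted p of up to 0.0833. The complement gene C3 had no count in any WT library. It was at 5.86, 50.9, 2.46 and 0 CPM in the 12-week KO libraries, so KO library 2 held most of the signal and library 4 none. It passed at 12 weeks (adjusted p = 0.0412, edgeR), but not without WT libraries 3 and 8 (adjusted p = 0.134), and that call held in 5 of 16 fits without 1 library. The medians were 1.19 and 3.27, also with the genes at 0 in WT set to their bound. With no count in WT, C3 passed the filter on low counts only through the KO libraries. Setting a bound does not undo that choice, so the medians and counts of this list are a description with no test. Cebpb itself stayed at about 1 CPM or less on average in all groups.

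**Figure D5:**
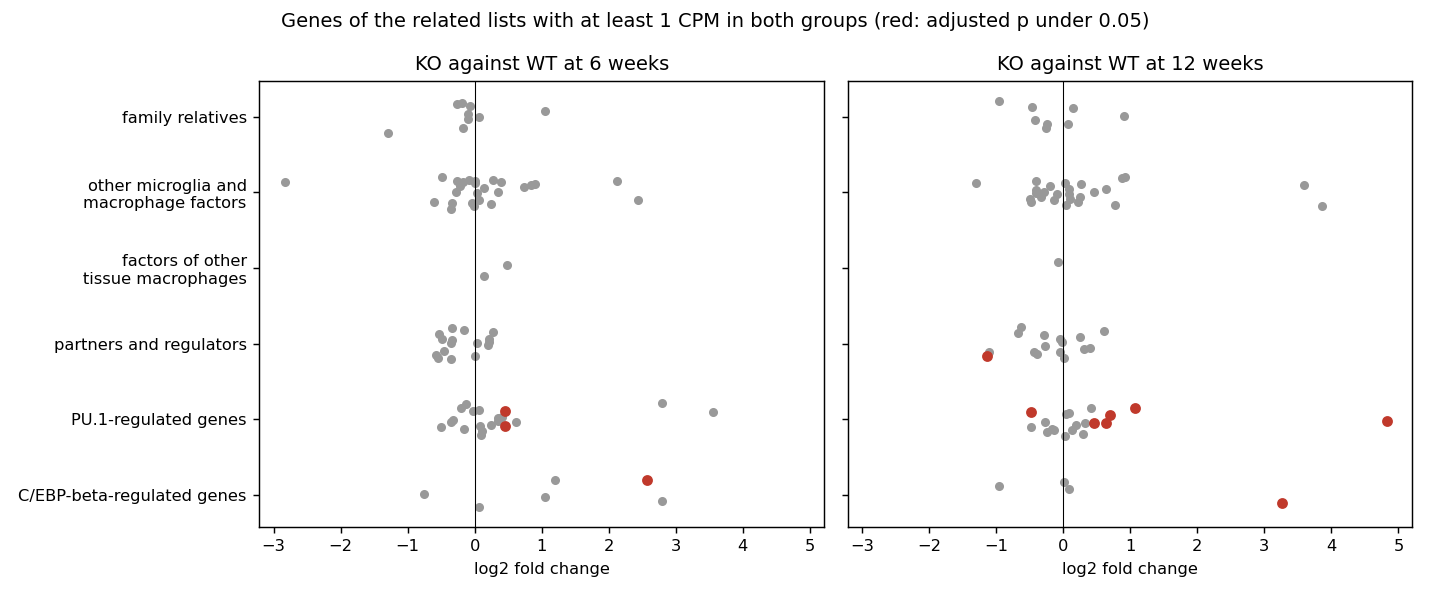
Log2 fold change of KO against WT (x axis) at 6 and 12 weeks for the tested genes of the 6 related lists (y axis) that reach 1 CPM in both groups. Each point is a gene and red marks an adjusted p under 0.05; the points of family relatives and of other microglial factors are all grey, while 2 PU.1-regulated genes are red at 6 weeks and 6 at 12 weeks.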

How the data were processed

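Bulk RNA of sorted microglia was measured in 16 libraries made with a low-input kit, per the labels. For every library the authors deposited whole-number counts by gene, used here without change. A deposited table of the whole series held the same counts (100% equal over 36935 symbols). Per the submitters' processing notes, the build was GRCm39 and the tools included HTSeq 0.11.0, TopHat, Picard 2.13.2, SAMtools 1.10 and cutadapt 2.10. How strand and shared reads were handled, and which gene models were used, is not given in the sources used here, so genes that overlap others carry that doubt.

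The tool was edgeR 4.0.16 under R 4.3.3. The filter filterByExpr by group with a minimum count of 10 kept 17090 of 53700 lines. CPM are counts scaled to the TMM-adjusted library size, with mean and SD over 4 libraries. One quasi-likelihood fit (robust) held the 4 groups and sex. Two-sided p-values took the Benjamini-Hochberg adjustment across the whole table, and 0.05 was the threshold. Each SE was derived from the log2 change and its F value. Alternatives used DESeq2 1.42.0, limma 3.58.1, RLE or no scaling, no filter, no sex term, a replicate block, only the groups compared, and fits without libraries. The script was tested on simulated data. The 95% intervals come from the same fit and hold the spread between libraries. Floors of 3 counts cover counting error only, since reads were not counted by molecule.

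The members and gene lists were chosen with earlier results of these data known. The text names all members, up to 4 genes of each related list past the threshold with the smallest adjusted p, the 3 genes most like each member past the threshold, and Ercc1. Exonic lengths, GC content and overlaps come from GENCODE vM21 on GRCm38, and promoters from RefSeq GRCm38.p6. Same-numbered libraries of different groups did not deviate together (correlations -0.025 to 0.062), so numbers were not taken as pairs. Results on some genes are not reported here.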

Additional observations from a re-analysis of the deposited data

Results flagged for a closer look

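In 36 sets of 4 libraries (9 factors in 4 groups), 2 held a library whose distance to its nearest fellow exceeded Dixon's 95% critical value as a share of the range. Chance alone marks about 1 set in 20. Runx1 was at 178.2 CPM in 6-week KO library 4, the highest of its group, where the other 3 lay between 124 and 127 CPM. Cebpb was at 0.6819 CPM in 6-week KO library 1, which is 7 counts, the same count as in 2 deeper libraries of that group.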

How the results depend on the processing

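For KO against WT at 6 weeks, 0 members passed the threshold as reported. The count was 1, Maf each time, with only the 2 groups compared (adjusted p 0.0126), with DESeq2 (0.0132), with limma voom and library weights (0.0166) and without both 12-week WT libraries 3 and 8 (0.0244), and 0 to 1 when single libraries were left out. At 12 weeks the count was 1 as reported. It was 2, Maf and Sall1, with no filter on low counts and with DESeq2, 0 with only the 2 groups compared (Maf -0.62, adjusted p 0.0881) and 0 without libraries 3 and 8, and 1 to 2 when single libraries were left out. For the comparison averaged over both ages it was 2 as reported, 1 without libraries 3 and 8 and 1 to 2 when single libraries were left out. For both age comparisons and for the difference of effects it was 0 under every alternative run, namely those listed in the processing section. The cause of these differences was not tested.

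Replicate numbers in the titles did not pair libraries (correlations -0.025 to 0.062), and a replicate block took the place of sex. With the block the 12-week count stayed 1, but the member past the threshold was Mef2a (-0.67, adjusted p 0.0204) and not Maf (-0.72, adjusted p 0.0556), and the averaged count stayed 2, Maf and Mef2a (adjusted p 0.0341), with Sall1 at 0.0981. It changed no other count of members past the threshold. In place of 149 and 510 of all genes at 6 and 12 weeks, the block called 132 and 181, DESeq2 581 and 1556, no filter 353 and 1073, limma voom 266 and 459, only the 2 groups 166 and 204, and the fit without libraries 3 and 8 called 173 and 307. Leaving out single libraries gave 82 to 155 and 328 to 464. For the averaged comparison 794 became 478 with the block, 1311 with no filter and 1651 with DESeq2. For age in KO 4 became 585 with DESeq2, 204 with no filter, 16 with no sex term, 10 without libraries 3 and 8, 9 with limma voom, 1 with the block and 0 with only the 2 groups. For age in WT 2 became 510 with DESeq2, 194 with no filter, 1 with limma voom and 0 with the block or only the 2 groups. For the difference of effects 1 became 267 with DESeq2, 132 with no filter, and 2 with the block, without libraries 3 and 8 or without scaling. Of the PU.1-regulated genes the block called 1 at each age, in place of 2 and 6. Of 1184 single log2 changes of members under alternatives, 82 had another sign than reported, none of them past the threshold in either fit and none larger than 0.29. Counts of under 40 per group limit what can be said of Cebpb.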

Other observations

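The sex term of the fit, male against female, gave no call among the 8 members tested by edgeR (adjusted p = 1 for each, and none at an unadjusted p under 0.05), with log2 differences from -0.10 for Maf to 0.19 for Runx1. The biological coefficient of variation of Maf was 0.14, lower than that of all but 2.06% of the 17090 genes, and those of Mef2a and Mef2c were 0.16 each. That of Sall3 was the highest of the 8, at 0.26. By mean level over the 16 libraries Mef2c stood above 99.3% of the genes tested, and Cebpa, the lowest member tested, above 76.4%.

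Across the 16 libraries Runx1 was nearer to Mef2c than to any other member, at a root mean square difference of 0.24 on the centred log2 scale, which is rank 40 of 9803 genes as seen from Runx1. Mef2a was at 0.26 from Mef2c. These are descriptions over libraries that share their groups, without a test. The quality weights that limma voom gave the libraries ran from 0.447 for 12-week WT library 5_6 to 2 for 6-week WT library 2, with 0.552 and 0.646 for 12-week WT libraries 8 and 3.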
